A study of Mus musculus with 4 samples.

Results

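The genes described here are 8 long RNAs that are known to stay largely in the nucleus: Malat1, Neat1, Miat, Meg3, Rian, Mirg, Kcnq1ot1 and Snhg11. They were taken by their symbols from the 29300 genes of the deposited count table, and all 8 were found and had enough counts to be tested. The study compared the hippocampus of control mice with that of a mouse model of perioperative neurocognitive disorder (PND) made by tibial fracture, and asked how the transcriptome responded. Both groups were made up of wild-type C57BL/6 males, 7 to 8 months of age, that received isoflurane anesthesia and tramadol analgesia. The 2 control mice (sham) had anesthesia only, and the 2 PND mice had the open fracture of the tibia with an intramedullary nail. Hippocampal tissue was taken on day 1, and RNA bound by oligo(dT) beads was sequenced. Untreated mice and later times were not analysed here, and what anesthesia and analgesia did to these RNAs is shared by both groups. Whole tissue RNA was measured, and the place of each RNA in the cell was not.

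Long noncoding RNAs of this kind act where they are made or in bodies of the nucleus rather than as templates for protein. Malat1 is a component of nuclear speckles, where splicing factors gather, and Neat1 is the scaffold of paraspeckles, bodies that hold RNA-binding proteins such as Sfpq, Nono and Pspc1. Miat, also called Gomafu, forms nuclear spots of its own in neurons and binds splicing factors. Meg3, Rian and Mirg are transcribed in the same direction from the maternal copy of the imprinted Dlk1-Dio3 locus and carry many microRNAs and C/D box small nucleolar RNAs (snoRNAs). Kcnq1ot1 is transcribed from the paternal copy of the Kcnq1 domain and is known for silencing neighbouring genes on that copy, Cdkn1c among them. Snhg11 hosts snoRNAs in its introns. The deposited annotation lists 7 of the 8 in long noncoding classes and Snhg11 as protein coding.

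Because the libraries were made from RNA bound by oligo(dT), the runs of A inside these transcripts are shown first. Mature Malat1 and the long form of Neat1 are known to end without a poly(A) tail, and a run of A within a transcript can bind oligo(dT) as a tail does. In the transcripts of GENCODE M21 (GRCm38), 4 of the 8 genes held a run of 10 or more A, as did 24.8% of the 17120 tested genes with a transcript sequence. The longest run of each of these 4 genes, and that of Miat for comparison, is given with 15 flanking bases on each side, 5′ to 3′ on the strand of the gene. Capitals mark the run.
Kcnq1ot1, chr7:143226930-143227000: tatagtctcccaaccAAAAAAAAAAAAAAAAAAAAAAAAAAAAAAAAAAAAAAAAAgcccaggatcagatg
Meg3, chr12:109545802-109545847: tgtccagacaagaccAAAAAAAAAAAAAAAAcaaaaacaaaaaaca
Rian, chr12:109652214-109652258: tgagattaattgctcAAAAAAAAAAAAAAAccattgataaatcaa
Malat1, chr19:5795973-5796014: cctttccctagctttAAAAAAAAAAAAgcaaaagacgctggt
Miat, chr5:112229198-112229231: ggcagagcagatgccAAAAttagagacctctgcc

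The run of 41 A in Kcnq1ot1 was the longest of the set, and that transcript held 10 runs of at least 10 A. It is also by far the longest transcript of the set, with 93092 bases beside 20771 for Neat1. The runs were not counted per length. Only 0.0643% of the tested genes had a run of 40 or more. Meg3 held 6 runs of at least 10 A, Rian and Malat1 held 1 each, and the run of Malat1 lay 298 bases from the annotated end. The longest run was 9 A in Snhg11, 7 in Neat1, 5 in Mirg and 4 in Miat, beside a median of 7 over the tested genes. How far internal priming or capture on these runs contributed to the counts was not tested.

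The promoters are shown for the 3 genes that rose past 1.5-fold, for Miat, the gene called lower, and for Meg3, whose promoter lies at the head of the maternal transcripts of its locus. The windows are from RefSeq (GRCm38.p6) and run from 250 bases before to 50 bases after the gene start in RefSeq. For Malat1 this is the start of the deposited gene model, and for Kcnq1ot1 and Meg3 it lies within 5 bases of it. For Snhg11 it lies 75 bases downstream, and for Miat 447 bases downstream, so the window of Miat lies wholly inside its deposited gene model. Symbols of 7 of the 8 genes matched this table, all but Neat1. Capitals mark matches, on either strand, to the core of the cAMP response element (TGACG), the CCAAT box (CCAAT), the GC box (GGGCGG) and the TATA box (TATAAA). These were held by 20.8%, 37.4%, 35.7% and 13.6% of the 32851 windows in the table.
Snhg11, chr2:158375463-158375762, plus strand: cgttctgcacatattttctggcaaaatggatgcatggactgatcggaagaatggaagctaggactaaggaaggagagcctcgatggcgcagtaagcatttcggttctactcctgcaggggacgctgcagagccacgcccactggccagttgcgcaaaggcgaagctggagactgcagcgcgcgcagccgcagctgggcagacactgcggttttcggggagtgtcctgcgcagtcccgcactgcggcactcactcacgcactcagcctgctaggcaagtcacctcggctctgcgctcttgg
Malat1, chr19:5802623-5802922, minus strand: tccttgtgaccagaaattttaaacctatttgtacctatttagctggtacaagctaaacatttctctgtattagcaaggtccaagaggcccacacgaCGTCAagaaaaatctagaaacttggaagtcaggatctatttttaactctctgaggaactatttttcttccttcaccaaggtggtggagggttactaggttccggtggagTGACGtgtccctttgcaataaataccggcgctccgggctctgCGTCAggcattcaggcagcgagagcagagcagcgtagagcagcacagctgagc
Kcnq1ot1, chr7:143296498-143296797, minus strand: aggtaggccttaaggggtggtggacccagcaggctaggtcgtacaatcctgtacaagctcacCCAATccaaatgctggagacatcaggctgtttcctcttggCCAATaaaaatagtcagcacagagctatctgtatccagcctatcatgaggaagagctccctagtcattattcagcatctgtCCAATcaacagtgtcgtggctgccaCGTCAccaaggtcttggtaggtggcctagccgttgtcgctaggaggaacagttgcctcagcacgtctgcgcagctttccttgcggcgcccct
Miat, chr5:112228899-112229198, minus strand: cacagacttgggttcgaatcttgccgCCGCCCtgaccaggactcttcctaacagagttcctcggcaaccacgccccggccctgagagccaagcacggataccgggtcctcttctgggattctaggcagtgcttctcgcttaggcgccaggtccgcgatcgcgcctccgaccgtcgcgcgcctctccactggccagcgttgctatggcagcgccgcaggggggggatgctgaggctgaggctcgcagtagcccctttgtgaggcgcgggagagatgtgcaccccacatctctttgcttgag
Meg3, chr12:109540746-109541045, plus strand: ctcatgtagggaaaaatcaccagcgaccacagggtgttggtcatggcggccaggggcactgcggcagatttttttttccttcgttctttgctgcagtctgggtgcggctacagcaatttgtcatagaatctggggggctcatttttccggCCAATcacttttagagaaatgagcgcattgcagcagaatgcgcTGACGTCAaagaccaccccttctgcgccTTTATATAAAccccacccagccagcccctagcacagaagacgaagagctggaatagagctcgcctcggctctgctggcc

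None of the 4 motifs was held by all 3 windows of the genes that rose. That of Malat1 held 3 matches to the cAMP response element core, the nearest to the start at position -3. That of Kcnq1ot1 held 1 such match and 3 CCAAT boxes, at -188, -148 and -67. That of Snhg11 held no match but was rich in CG, with 21 CG dinucleotides and 60.0% GC, beside a median of 7 and 52.7% over all windows. The window of Miat held 25 CG dinucleotides and 1 GC box. In Meg3 the matches to the cAMP response element core overlap on opposite strands from -57 onwards, upstream of overlapping TATA matches at -29 and -25. The letters describe these windows only, and no binding was measured.

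The libraries held 15763432 to 18573386 counts, and 17144 genes passed a filter for a minimum count of 10. Counts were scaled by TMM, which corrects library totals for composition, to CPM, the counts of a gene per 1000000 counts of its library, and tested with edgeR's quasi-likelihood test. A fit that leaves out a mouse has 1 mouse in that group, which is assumed to vary like the mice of the other group. A gene is called here when its p, adjusted by the Benjamini-Hochberg method over all genes tested, is under 0.05. The p-values set the difference between groups against the spread between mice of a group, and the fit shares that spread over genes. In all, 26.0% of the genes were called, 13.1% higher and 12.8% lower in PND mice, and 6.75% were higher and 2.09% lower by at least 1.5-fold. Fold changes followed GC content across the transcriptome, so each of the 8 RNAs is also given from a model with an offset that removes the trend of every library with the length and GC content of transcripts. With that offset 94 genes (0.549%) were called higher and 178 (1.04%) lower. All 8 marker genes of neurons and all 7 of the hippocampus were detected in every mouse. Of the 7 hippocampal markers 3 were called higher and 2 lower. Among 6 astrocyte markers 2 were higher and 2 lower, and among 6 microglial markers 1 was higher and 0 lower. With the offset none of these hippocampal, astrocyte and microglial markers was called. Summed over 5 choroid plexus markers, control mice stood at 121 and 5309 CPM and PND mice at 1999 and 3389 CPM, so control mouse 1 stood apart there, and without it 5 of the 8 RNAs were called higher and 1 lower. PND mouse 2 stood apart in 6 oligodendrocyte markers, with a sum of 3289 CPM against 4586 to 5353 CPM in the other mice, and in the sum of 5 endothelial markers, which was 175 and 181 CPM in control mice and 205 and 267 CPM in PND mice. Of these 5 markers Flt1 and Slco1a4 were called higher (median log2 fold change 0.38), but neither with the offset or without the count filter, nor Flt1 without control mouse 1 or PND mouse 2 (adjusted p = 0.0727 and 0.0791). The part of these markers in the results was not tested. PND mouse 2 had the highest level of Malat1, Neat1, Meg3, Snhg11 and Kcnq1ot1. Without PND mouse 2 their log2 fold changes were 0.45, 0.22, 0.05, 0.51 and 1.01. With all mice they were 0.67, 0.33, 0.12, 0.61 and 1.17. The mitochondrial chromosome gave 3.05% and 2.70% of the counts of control mice and 5.10% and 5.14% of those of PND mice.

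Of the 8 RNAs, 4 were higher in PND mice (Kcnq1ot1, Malat1, Snhg11 and Rian), Miat was lower, and Meg3, Neat1 and Mirg were not called. Kcnq1ot1, Malat1 and Snhg11 were also past 1.5-fold. Both PND mice lay above both control mice for 6 genes and below them for Miat and Mirg, so the groups overlapped for none of the 8. Such separation was common: 65.5% of all tested genes did not overlap, 33.2% lying above and 32.2% below. The median log2 fold change of the 8 genes was 0.32, beside 0.01 over all genes tested and 0.20 over the 1472 tested genes of the long noncoding classes, of which 7.68% were called higher and 1.09% lower. With the length and GC offset the median of the 8 was 0.20, and Snhg11 was the only gene of the 8 still called.

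**Figure D1:**
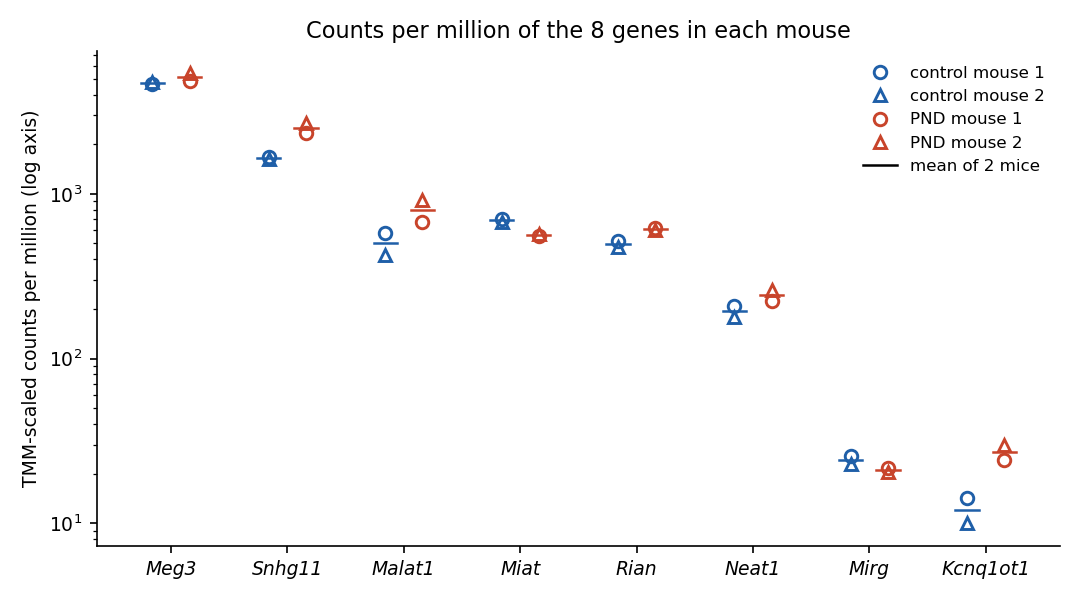
TMM-scaled CPM (log axis) of the 8 RNAs in each mouse, with control mice in blue, PND mice in red and a line at the mean of 2 mice. The PND mice lie above the control mice for 6 genes and below them for Miat and Mirg, and Meg3 is the most abundant at 4665 to 5390 CPM.

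Levels between genes were compared per length, as CPM per kilobase of merged annotated exons (RPKM). Meg3 led with a mean of 272 RPKM over the 4 mice and Snhg11 followed with 245 RPKM, and their ranges over mice overlapped. Malat1 (92.7 RPKM) and Miat (67.2 RPKM) came next and also overlapped each other. Rian at 30.4 RPKM, Neat1 at 10.5 RPKM, Mirg at 3.11 RPKM and Kcnq1ot1 at 0.233 RPKM followed, each separated from the next over the 4 mice. The order depended on the gene model. Per length of the longest annotated transcript, Snhg11 stood at 356 RPKM and Meg3 at 338 RPKM, and Rian rose to 68.6 RPKM, level with Miat at 68.2 RPKM. The low value of Kcnq1ot1 is spread over a span of 84395 bases.

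Of all counts, the 8 genes together took 0.822% and 0.805% in control animals and 0.942% and 1.07% in PND animals. The 95% Wilson intervals were narrow, the widest from 1.06% to 1.07%, and cover counting error only. Both PND mice lay above both control mice, and the exact two-sided permutation p was 0.333, the smallest that 2 against 2 mice can give. Meg3 made up 55.6% and 58.3% of these counts in control mice and 52.1% and 51.4% in PND mice. Snhg11 took 19.97% and 19.96% in control mice and 25.1% and 25.7% in PND mice, while Miat went from 8.42% and 8.20% to 5.94% and 5.41%.

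Malat1 (ENSMUSG00000092341, chr19:5795690-5802672, minus strand) is a lincRNA annotated as 1 exon block of 6983 bases. Malat1 reached 575 and 425 CPM in controls (mean 500.0 ± 107, SD, n = 2) and 678 and 911 CPM in PND mice (795 ± 165). Both PND mice were higher, but the mice within a group differed widely, relative to their mean more than for any other gene of the set in PND mice and for any but Kcnq1ot1 in control mice. The log2 fold change was 0.67 (SE 0.18, 95% interval 0.24 to 1.10), a 1.59-fold rise with an edgeR adjusted p of 0.0372. The call rested on single mice: without control mouse 2 the log2 fold change was 0.46 (adjusted p = 0.0908) and without PND mouse 2 it was 0.45 (adjusted p = 0.0584), and the call was also lost with DESeq2 (adjusted p = 0.0746) and without the count filter (adjusted p = 0.108). With a GC content of 42.3%, Malat1 was among the genes of low GC that were mostly higher in PND mice, and with the length and GC offset its log2 fold change was 0.22 (adjusted p = 0.450).

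Neat1 (ENSMUSG00000092274, chr19:5824708-5845478, minus strand) lies beside Malat1 on the same chromosome and strand. Its annotated exon block of 20771 bases holds both the short and the long form, so the counts do not separate them. Neat1 reached 208 and 179 CPM in control mice and at 224 and 261 CPM in PND mice. The PND mice were higher by a margin smaller than the difference between the control mice. Its log2 fold change was 0.33 (SE 0.10, 95% interval 0.08 to 0.57) and did not pass the test (edgeR adjusted p = 0.0602). It passed with DESeq2 (adjusted p = 0.0141) and with scaling to library totals alone (adjusted p = 0.0400). The log2 fold change was 0.43 without control mouse 1 and 0.42 without PND mouse 1. Without control mouse 2 or without PND mouse 2 it was 0.22. With the offset the log2 fold change was 0.21 (adjusted p = 0.297).

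Within a library the ratio of counts does not depend on scaling. Neat1 had 36.1% and 42.1% as many counts as Malat1 in control mice and 33.0% and 28.6% in PND mice, a difference of -0.34 on the log2 scale. The groups did not overlap (exact permutation p = 0.333, the smallest possible). The genes differ in GC content (48.2% and 42.3%), and with the offset their log2 fold changes differed by -0.01.

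The proteins that build these bodies were read from lists of known components. Of 15 paraspeckle proteins, 5 were higher and 1 lower in PND mice, and the median log2 fold change was 0.21. Over all tested genes 13.1% were higher and 12.8% lower. Matr3, a nuclear matrix protein that binds RNA, rose from 130 and 123 CPM to 278 and 279 CPM (log2 fold change 1.14, SE 0.06, edgeR adjusted p = 0.00393). Sfpq (0.52, adjusted p = 0.00789) and the RNA cleavage factor subunits Cpsf6 (0.73, adjusted p = 0.00446) and Nudt21 (0.28, adjusted p = 0.0340) were higher as well, as was Hnrnpk (0.27, adjusted p = 0.0176), and none of these 4 was called with the offset. Leaving out a mouse ended the call of Nudt21 whichever mouse it was (adjusted p = 0.0619 to 0.147), as did DESeq2 (0.0765) and the lack of the count filter (0.0903), and that of Hnrnpk for every mouse but PND mouse 1 (0.0623 to 0.0668). Smarca4, the ATPase of a chromatin remodelling complex, was lower (-0.33, adjusted p = 0.0105), while Nono and Pspc1 were not called. With the offset 1 of the 15 was higher, Matr3 at 0.61 (adjusted p = 0.0303), none was lower, with Smarca4 at -0.13 (adjusted p = 0.372), and the median was 0.01.

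Of 18 nuclear speckle proteins, 12 were higher and 1 lower, and their median log2 fold change was 0.53. Over all tested genes 13.1% were higher and 12.8% lower. Among the tested genes of lowest GC content (28.7% to 42.8%), which include Rbm25, Thoc2 and Luc7l3, 50.2% were higher. Rbm25, a regulator of splice site choice, rose from 88.0 and 73.3 CPM to 182 and 199 CPM (1.24, SE 0.10, edgeR adjusted p = 0.00419). Thoc2 of the mRNA export complex (1.06) and Luc7l3 (0.82) were also higher, both with an adjusted p of 0.00428. The helicase Ddx39b was lower (-0.29, adjusted p = 0.0153), though not without control mouse 1 (-0.27, adjusted p = 0.0580), and Srrm2, the most abundant of the list, was not called (0.13, adjusted p = 0.164). With the offset 4 of the 18 were higher, Rbm25, Srrm1 and Srsf2 among them, and none was lower, with a median of 0.20. Thoc2 (0.21, adjusted p = 0.177) and Luc7l3 (0.34, adjusted p = 0.0540) were then not called.

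**Figure D2:**
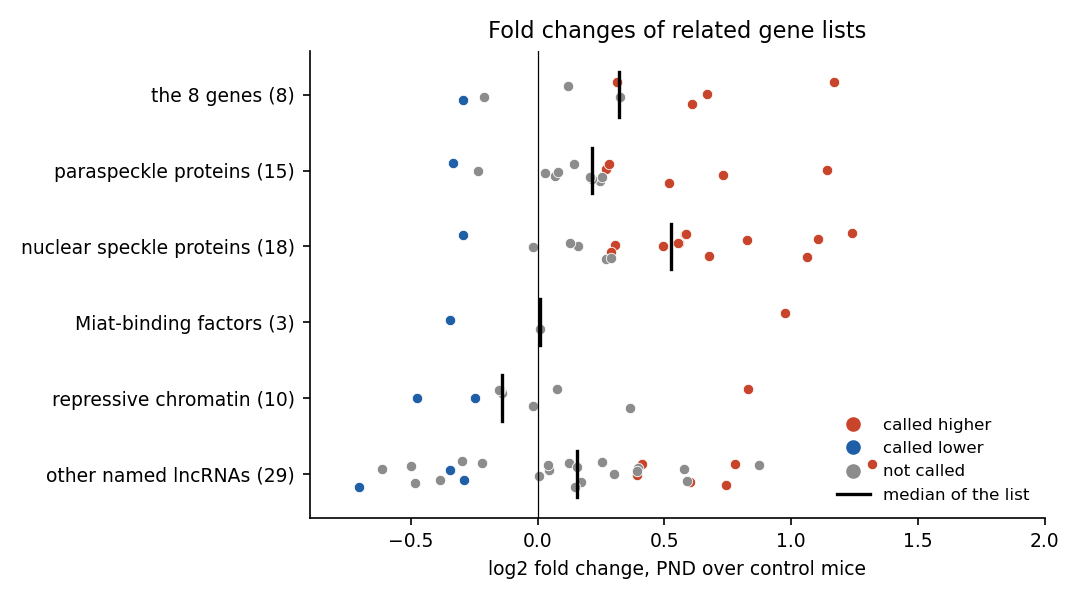
Log2 fold change of PND over control mice for the 8 RNAs and for lists of proteins and RNAs related to them, with genes called higher in red, called lower in blue and not called in grey, and a black line at the median. The number of genes tested stands in brackets, and points are spread vertically at random so that they can be seen. Medians run from -0.14 for repressive chromatin proteins to 0.53 for speckle proteins.

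Miat (ENSMUSG00000097767, chr5:112213228-112229395, minus strand) was the only gene of the set called lower. It was measured at 706 and 671 CPM in control mice (689 ± 25.1, SD, n = 2) and at 554 and 568 CPM in PND mice (561 ± 9.78). The groups lay well apart, and the mice within a group were close. The log2 fold change was -0.30 (SE 0.06, 95% interval -0.44 to -0.16, edgeR adjusted p = 0.0141), and Miat was called lower when any mouse was left out, with adjusted p-values of 0.0269 to 0.0499. Its GC content of 55.4% was the highest of the 8. In the bin of genes of similar GC, 26.6% were called lower, and with the offset the log2 fold change was -0.12 (adjusted p = 0.388).

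Miat shares 24.3% of its exon bases with Gm26953, a lincRNA on the opposite strand. Gm26953 had 22 and 16 counts in control mice and 6 and 12 in PND mice (log2 fold change -0.96, SE 0.47, adjusted p = 0.187). Whether the counting used strand is not given in the sources used here, so reads of the pair cannot be told apart where they overlap. Of the 3 splicing factors known to bind Miat, Qk was higher (0.98, SE 0.09, edgeR adjusted p = 0.00428), Celf3 was lower (-0.35, SE 0.07, adjusted p = 0.0186) and Sf1 was not called (0.01, SE 0.06, adjusted p = 0.936). With the offset none of the 3 was called, and Celf3 was not called without control mouse 1 (-0.29, adjusted p = 0.0585) or PND mouse 2 (-0.28, adjusted p = 0.0563). In bulk tissue fewer cells of a type and less RNA per cell cannot be told apart. This holds for Miat beside neuronal markers that moved both ways, with Slc17a7 (-0.39) and Tubb3 (-0.64) lower and Map2 (0.53) and Gad2 (0.32) higher among 8 tested, none of them called with the offset (-0.17, -0.36, 0.18 and 0.02), and summed levels of 6823 to 6972 CPM in control mice and 6607 to 6891 CPM in PND mice. The call of Gad2 was also lost without the count filter (adjusted p = 0.123), with RLE size factors (0.0508), with thinning (0.0506) and when any mouse other than PND mouse 2 was left out (0.0659 to 0.165). The part of cell composition in these values was not tested.

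Meg3 (ENSMUSG00000021268, chr12:109541001-109571726, plus strand) was the third most abundant of all tested genes by CPM and the 68th per length. It was measured at 4665 and 4763 CPM in control mice (4714 ± 69.8, SD, n = 2) and at 4849 and 5390 CPM in PND mice (5119.8 ± 383). The PND mice differed from each other by more than the nearest mice of the 2 groups did. The log2 fold change was 0.12 (SE 0.08, 95% interval -0.06 to 0.30) and did not pass the test (edgeR adjusted p = 0.292), nor did it with the offset (0.18, adjusted p = 0.2506).

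Rian (ENSMUSG00000097451, chr12:109603940-109661716, plus strand), downstream of Meg3, is known as the host of a large cluster of snoRNAs. Rian stood at 516 and 474 CPM in control mice (495 ± 29.2, SD, n = 2) and at 623 and 606 CPM in PND mice (614 ± 11.8). The groups were well separated. The log2 fold change was 0.31 (SE 0.06, 95% interval 0.16 to 0.46, edgeR adjusted p = 0.0164), and without control mouse 2 it was 0.25 (adjusted p = 0.0787). The direction depended on the correction for GC content, which at 40.1% was the lowest of the 8. With the length and GC offset the log2 fold change turned to -0.28 (SE 0.07, adjusted p = 0.0869), so the rise holds for the scaled counts but not relative to genes of the same length and GC.

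Mirg (ENSMUSG00000097391, chr12:109729764-109749460, plus strand), the last of the 3 maternal RNAs, is known as a host of microRNAs. Mirg stood at 25.7 and 23.0 CPM in control mice and at 21.5 and 20.6 CPM in PND mice. The PND mice were lower, but the difference did not pass the test (log2 fold change -0.21, SE 0.11, 95% interval -0.47 to 0.05, edgeR adjusted p = 0.204). The offset left it at -0.13 (adjusted p = 0.578).

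The 3 RNAs of the locus were also compared within each library. Rian stood at 11.1% and 9.96% of the counts of Meg3 in control mice and at 12.8% and 11.2% in PND mice, a log2 difference of 0.20 with the nearest mice almost touching. Mirg stood at 0.551% and 0.482% of Meg3 in control mice and at 0.444% and 0.381% in PND mice (-0.33). Mirg stood at 4.99% and 4.84% of Rian in control mice and at 3.45% and 3.39% in PND mice (-0.52). For each of these ratios the groups did not overlap, with an exact permutation p of 0.333, the smallest that can be reached. Rian is far lower in GC content (40.1%) than Meg3 (51.9%) and Mirg (52.0%), and with the length and GC offset the signs of both differences with Rian turned. Rian then differed from Meg3 by -0.47, and Mirg differed from Rian by 0.16 and from Meg3 by -0.31. Mirg thus lay below Meg3 under both models, while the place of Rian changed.

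Between Dlk1 and Dio3 the table listed 51 genes, of which 14 were tested, and Rian and the lincRNA Gm26945 were called higher. Over all tested genes 13.1% were called higher. Gm26945 lies inside Rian on the same strand, shares 0 exon bases with it and had 37 and 12 counts in control mice and 106 and 75 in PND mice (log2 fold change 1.99, SE 0.47, edgeR adjusted p = 0.0252). It was not called with the offset (1.21, adjusted p = 0.203), without control mouse 2 (1.36, adjusted p = 0.0641) or without the count filter (1.98, adjusted p = 0.0696). Its counts are uncertain, since unspliced reads of Rian would cover it as well. Among the snoRNA genes inside Rian, DQ267102 had 6 and 0 counts in control mice and 16 and 14 in PND mice (adjusted p = 0.0721, and 0.0207 without control mouse 1, which leaves the control with 0 counts), Gm23600 had 37 and 42 against 42 and 32, and Gm24564 had 27 and 19 against 15 and 17. The microRNA genes Mir341 (44 and 28 against 25 and 10) and Mir1188 (23 and 22 against 20 and 13) were not called either. In all, 27 microRNA genes of the locus held 108 and 112 counts in control mice and 95 and 84 in PND mice, and reads over their precursors in poly(A)-enriched libraries do not measure the mature microRNAs.

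The paternally expressed coding genes at the locus were not called. The Notch ligand homologue Dlk1 had a log2 fold change of -0.01 (SE 0.24, adjusted p = 0.9753) and the thyroid hormone deiodinase Dio3 of -0.03 (SE 0.21, adjusted p = 0.940). Rtl1, a retrotransposon-derived gene opposite a maternal transcript, had 131 and 134 counts in control mice and 92 and 95 in PND mice (-0.39, SE 0.17, adjusted p = 0.1505). Of the 15 genes in the list of these 3 and the coding genes that flank the locus, 2 were higher and 6 lower (median -0.32). Over all tested genes 13.1% were higher and 12.8% lower. The chaperone Hsp90aa1 had the largest rise (0.42, adjusted p = 0.0224) and the dynein heavy chain Dync1h1 the largest fall (-0.46, adjusted p = 0.00533), and with the offset none of the 15 was called. Hsp90aa1 was not called without control mouse 2 (0.36, adjusted p = 0.0769) or the count filter (adjusted p = 0.0653) either.

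**Figure D3:**
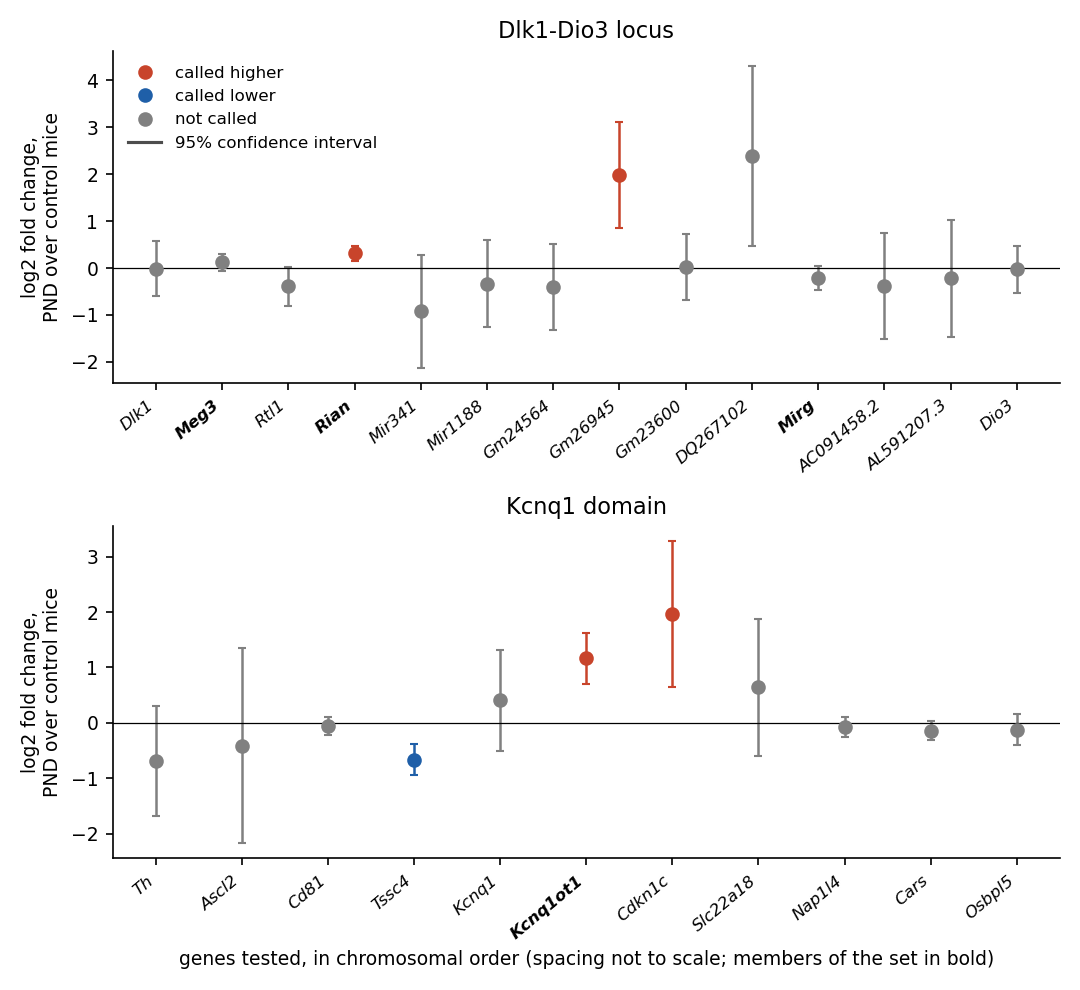
Log2 fold change of PND over control mice with the 95% confidence interval for the tested genes between Dlk1 and Dio3 (upper panel) and in the Kcnq1 domain (lower panel), in chromosomal order and not to scale, with genes called higher in red and called lower in blue. Of 14 genes in the upper panel Rian and Gm26945 were called, and of 11 in the lower panel Kcnq1ot1, Cdkn1c and Tssc4 were.

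Kcnq1ot1 (ENSMUSG00000101609, chr7:143212155-143296549, minus strand), antisense to Kcnq1, had the largest fold change of the set. It had 245 and 183 counts in control mice and 387 and 507 in PND mice, or 14.2 and 10.01 CPM (12.1 ± 2.98, SD, n = 2) against 24.3 and 30.0 CPM (27.2 ± 4.08). On the log2 scale the change was 1.17 (SE 0.19, 95% interval 0.70 to 1.63), a 2.25-fold rise with an edgeR adjusted p of 0.00844. The call held when any mouse was left out, with log2 fold changes of 0.93 to 1.43. At a GC content of 40.3% it also belonged to the genes of low GC. With the length and GC offset the log2 fold change was 0.53 (SE 0.17, adjusted p = 0.134).

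Of the 14 genes listed for the Kcnq1 domain, 10 were tested, and 1 was higher and 1 lower. Over all tested genes 13.1% were higher and 12.8% lower. Cdkn1c, an inhibitor of the cell cycle that Kcnq1ot1 is known to silence on the paternal copy, had 11 and 40 counts in control mice and 59 and 126 in PND mice (log2 fold change 1.96, SE 0.55, edgeR adjusted p = 0.0424). Its call was lost without control mouse 1 (1.35, adjusted p = 0.0936), the mouse that also stood apart in choroid plexus markers, without PND mouse 2 (1.37, adjusted p = 0.119), and with the offset (2.28, adjusted p = 0.0778). It was also lost without the count filter (adjusted p = 0.110), with limma-voom (0.0508) and with thinning (0.0536). Tssc4 was lower, with 577 and 690 counts against 384 and 350 (-0.67, SE 0.12, adjusted p = 0.00997), and -0.36 with the offset (adjusted p = 0.136). Kcnq1 itself, a potassium channel gene that Kcnq1ot1 overlaps on the opposite strand, had 15 and 20 counts against 17 and 26 (0.41, adjusted p = 0.473). Cd81 (-0.06, adjusted p = 0.563) and Nap1l4 (-0.08, adjusted p = 0.468) were not called. The counts do not separate the parental copies.

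Kcnq1ot1 is known to recruit the Polycomb repressive complex and the histone methyltransferase Ehmt2, also called G9a. Of 10 repressive chromatin proteins, the Polycomb subunit Suz12 was higher (0.83, SE 0.10, edgeR adjusted p = 0.00464), while Ehmt2 (-0.48, SE 0.06, adjusted p = 0.00473) and the DNA methyltransferase Dnmt1 (-0.25, SE 0.07, adjusted p = 0.0394) were lower. Over all tested genes 13.1% were higher and 12.8% lower. The call of Dnmt1 was lost when any mouse was left out (adjusted p = 0.0896 to 0.136), with DESeq2 (0.0742), without the count filter (0.0809) and on library totals (0.0721). With the offset these 3 were no longer called, and the histone-binding subunits Rbbp4 (-0.45, adjusted p = 0.0406) and Rbbp7 (-0.41, adjusted p = 0.0441) were called lower.

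Snhg11 (ENSMUSG00000044349, chr2:158375638-158386145, plus strand) was called higher under every alternative tried. It was measured at 1674 and 1632 CPM in control mice (1653 ± 29.8, SD, n = 2) and at 2342 and 2697 CPM in PND mice (2519.7 ± 250.7). The lower PND mouse lay far above both control mice. The log2 fold change was 0.61 (SE 0.08, 95% interval 0.41 to 0.80), a 1.52-fold rise with an edgeR adjusted p of 0.00546, and it ran from 0.51 to 0.69 when any mouse was left out. At a GC content of 48.8% it was near the median of the tested genes (49.97%). In its GC bin 6.40% of the genes were called higher, and with the length and GC offset its log2 fold change was 0.52 (SE 0.08, 95% interval 0.33 to 0.72, adjusted p = 0.0408). Gm25129, a snoRNA gene inside Snhg11, had 60 and 82 counts in control mice and 56 and 50 in PND mice (-0.31, SE 0.25, adjusted p = 0.422).

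**Figure D4:**
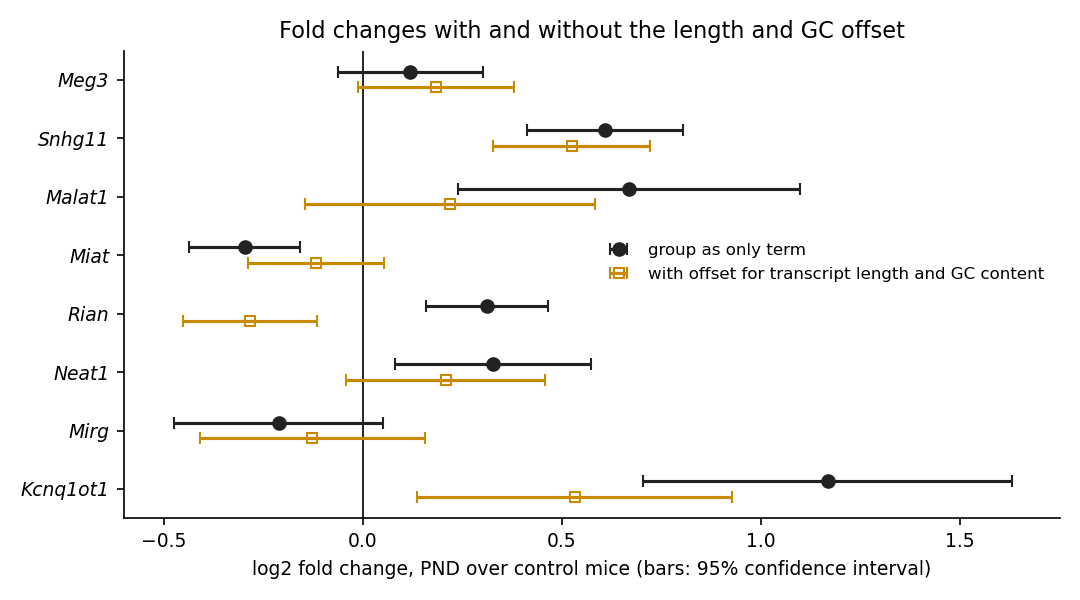
Log2 fold change of each RNA with its 95% confidence interval, from the model with group as the only term (black) and from the model with an offset for transcript length and GC content (orange). Rian moves from 0.31 to -0.28, Kcnq1ot1 from 1.17 to 0.53 and Malat1 from 0.67 to 0.22, while Snhg11 stays at 0.61 and 0.52.

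The GC content of the annotated transcripts set these genes apart from each other. When the tested genes were put in 8 bins of equal size by GC content, Kcnq1ot1, Malat1 and Rian fell in the bin of lowest GC (28.7% to 42.8%), in which the median log2 fold change was 0.60 and 50.2% of genes were called higher. Rian, at 0.31, thus lay below the median of its bin, Malat1, at 0.67, close to it, and Kcnq1ot1, at 1.17, above it. Neat1 and Snhg11 shared a bin with a median of 0.04, and both were above it. Meg3 (0.12) and Mirg (-0.21) shared a bin with a median of -0.08 and lay on either side. Miat, at -0.30, was near the median of -0.25 of its bin. Transcripts of the mitochondrial chromosome moved with the same trend, with 11 of 12 higher (median 1.09) without the offset and 1 of 12 with it. What gave rise to the trend with GC content was not tested.

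**Figure D5:**
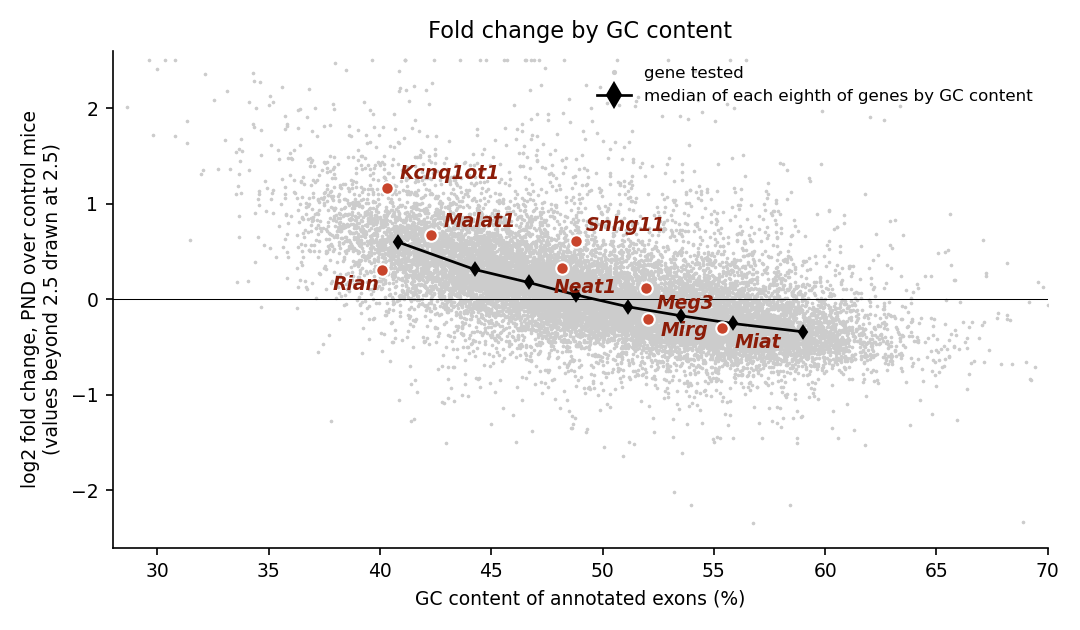
Log2 fold change of PND over control mice against GC content for all genes tested (grey), with the median of 8 bins of equal size (black, drawn at the median GC of each bin) and the 8 RNAs in red. The GC content is taken over all annotated transcripts of a gene, although the axis names annotated exons. Kcnq1ot1 and Snhg11 lie above the trend and Rian lies below it.

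Other long noncoding RNAs give the scale for these changes. Among the 10 most abundant ones outside the set, 3 were higher, 2 lower and 5 not called (median 0.13). Over all tested genes 13.1% were higher and 12.8% lower, and in the long noncoding classes 7.68% and 1.09%. The lincRNA 1700020I14Rik went from 254 and 231 CPM to 389 and 424 CPM (0.74, SE 0.07, edgeR adjusted p = 0.00446), and the antisense RNA B230334C09Rik was higher as well (0.61, SE 0.07, adjusted p = 0.00454). With the offset neither was called, at 0.15 (adjusted p = 0.234) and 0.05 (adjusted p = 0.724). Snhg14, the imprinted host of snoRNAs near Ube3a, was higher (0.39, SE 0.07, adjusted p = 0.0120) but, like Rian, turned with the offset (-0.39, adjusted p = 0.0444), and it was not called without control mouse 2 (0.34, adjusted p = 0.0522). Both have a GC content near 40%, 38.1% for Snhg14. The imprinted Peg13 (-0.35, adjusted p = 0.00738) and the lincRNA 6330403K07Rik (-0.25, adjusted p = 0.0265) were lower but were not called with the offset (adjusted p = 0.0710 and 0.279). The call of 6330403K07Rik was also lost when any mouse was left out (adjusted p = 0.0554 to 0.100) and without the count filter (adjusted p = 0.0540). The 5 not called were 2900097C17Rik (0.12), Mir124a-1hg (0.15), Gm3764 (0.10), Gm10419 (0.17) and Firre (0.05).

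Of 29 tested RNAs in a list of other named long noncoding RNAs, 6 were higher and 3 lower (median 0.15), and of the 28 with a value under the offset 0 were higher and 3 lower (median 0.01). Without the offset 13.1% of all tested genes were higher and 12.8% lower. The list shares 6 RNAs with the 10 above, among them 3 of its 9 calls (1700020I14Rik, Snhg14 and Peg13). Mir99ahg, a microRNA host, had the largest rise (1.32, SE 0.22, edgeR adjusted p = 0.00839), and the widely expressed Tug1 was higher (0.60, SE 0.10, adjusted p = 0.00841). With the offset they stood at 0.62 (adjusted p = 0.166) and 0.03 (adjusted p = 0.875). Of the 12 tested RNAs of the list named Snhg or Gas5, most of them snoRNA hosts, 1 was higher (Snhg14), 2 were lower and 9 were not called. Snhg12 was lower (-0.70, SE 0.13, adjusted p = 0.0119) and so was Gas5 (-0.29, SE 0.07, adjusted p = 0.0316). The call of Snhg12 was lost without control mouse 2 (-0.64, adjusted p = 0.0535), and that of Gas5 when any mouse was left out (adjusted p = 0.0579 to 0.133), without the count filter (0.0699) and on library totals (0.0551). With the offset Gas5 stood at -0.73 (adjusted p = 0.0303) and Snhg12 at -0.82 (adjusted p = 0.0432).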

How the data were processed

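Hippocampal RNA of 2 control and 2 PND mice was sequenced on an Illumina NovaSeq as 150 nt paired-end reads. The authors mapped the reads to mm10 with HISAT, and the submitters' processing notes name HISAT2 2.1.0, Bowtie2 2.2.3, TopHat2 and HTSeq 0.6.0, without roles. The deposited table holds the count of reads per gene and mouse, without normalization, and only these counts were used. The authors' other columns hold a mean signal, a ratio of PND to control mice as a fold change, its log2 and p-values, which were not used. No per-sample column was of another series.

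The tests used edgeR 4.0.16 in R 4.3.3, with these settings: filterByExpr with a minimum count of 10, TMM, glmQLFit and glmQLFTest with group as the only term, and Benjamini-Hochberg adjustment over 17144 genes. The labels give no culture or litter beyond the mouse. Replicates differed by more than sampling noise (chi-square per degree of freedom 13.4 in control and 8.45 in PND mice). Coordinates are those of the deposited table. Exon lengths and GC content are from GENCODE M21, which holds 29238 of the 29300 identifiers, 93.2% with the same coordinates. GC content was taken over all annotated transcripts of a gene, so a base shared by several transcripts counts once for each. For Kcnq1ot1, whose models differ, the deposited span was used as length for RPKM. Its GC content, its runs of A and its length in the offset are those of the GENCODE M21 transcript of 93092 bases. The offset was fitted per library with mgcv 1.9.3 (basis size 8). On counts simulated for this comparison over 17081 genes tested, 168 of 200 genes changed 2-fold were recovered and 8 unchanged genes were called. The simulated counts held no trend with GC content or length, and the changed genes were drawn from genes with higher counts. They therefore give no rate of false calls for the real libraries and do not cover smaller changes.

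The members and the lists were chosen with earlier results of these data known. Genes named are the members, the 10 most abundant other long noncoding genes, genes inside or overlapping a member and, from each list, the called gene with the largest rise and the largest fall. Further genes of the lists, and of both neighbourhoods, were named after their values were seen. Alternatives were other normalizations, filters and tests (DESeq2 1.42.0, limma-voom with limma 3.58.1), the replicate number as a block, the offset, thinning to the smallest total, a scale without mitochondrially encoded genes and the members, a fold threshold of 1.5, other denominators and lengths, and leaving out each mouse. An offset for GC content alone was added after seeing the data. Some items of the lists are not reported here by name.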

Additional observations from a re-analysis of the deposited data

How the results depend on the processing

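With the length and GC offset 272 genes were called in place of 4449, 1 of the 8 genes was higher and 0 lower, and their median log2 fold change was 0.20. The offset for GC content alone, chosen after seeing the data, gave 415 genes, 1 higher, 0 lower and 0.20. Both offsets turned Rian (-0.28 and -0.30), Snhg14 (-0.39 and -0.40), 2900097C17Rik (-0.053 and -0.047), Gm10419 (-0.048 and -0.052) and the snoRNA gene Gm23600 (-0.24 and -0.031). The cause was not tested. Without a filter on low counts more genes were tested, 2665 were called, and 3 of the 8 were higher. Why fewer genes were called was not tested. The fold threshold left 1517 genes. Levels per length of the longest transcript were 338 RPKM for Meg3, 68.6 for Rian, 5.94 for Mirg and 356 for Snhg11.

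Same-numbered mice deviated together only weakly (correlation 0.224), and the labels tie no control mouse to a PND mouse. With the replicate number as a block 5281 genes were called, and 4 of the 8 were higher and 1 lower. The block with the offset gave 1753 genes, 1 of the 8 higher and a median of 0.20. It gave -0.28 for Rian (adjusted p = 0.0191, lower), -0.39 for Snhg14, -0.053 for 2900097C17Rik, -0.043 for Gm10419 and -0.24 for Gm23600, and called Mir124a-1hg (0.25, adjusted p = 0.0294) and Gm3764 (0.24, adjusted p = 0.0387) higher.

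Leaving out each mouse gave 2408 to 4105 genes called, 2 to 5 of the 8 higher, 1 lower throughout and medians of 0.23 to 0.40. The lowest counts came without control mouse 2, when Malat1 and Rian were not called. Firre, with a range of -0.045 to 0.12, turned without control mouse 1 and without PND mouse 2, and Gm23600, with a range of -0.24 to 0.25, turned without control mouse 1 and without PND mouse 1. The difference of the ratio of Rian to Meg3 ran from 0.10 to 0.29 and that of Mirg to Meg3 from -0.44 to -0.22. The other normalizations, filters, tests, thinning and scale left 4 to 5 of the 8 higher and 1 lower. With 2 mice in each group no comparison of a single value can reach an exact p under 0.333, and the lists rest on the same 4 mice.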
